A study of Homo sapiens with 12 samples.

Results

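The genes described here are 39 members of the transcriptional program of ATF4, the factor that cells use to answer amino acid shortage. They are a list drawn up by gene function with earlier results of these data known, so counts among them are not an independent test. Each gene was matched by symbol to the probes of a human expression BeadChip. A gene was tested where at least 1 probe had a detection score above 0.99 on 3 or more of the 12 arrays, and its brightest such probe stands for it. Of the 39 members, all of which had a probe on the array, 34 passed this filter and 5 did not, among 9942 tested genes in all. The cells were CHRF288-11, a human megakaryoblastic leukaemia line, held for 16 h without serum and then for 8 h under 1 of 4 conditions: Wnt3a at 150 ng/mL with Wnt5a at 1200 ng/mL, Wnt5a alone at 1200 ng/mL, Wnt3a alone at 150 ng/mL, or no ligand. Each condition had 3 arrays, which the series calls biological replicates. Nothing states that they came from separate cultures, so p-values measure the spread between these samples only. Each recombinant ligand was given at 1 dose with no vehicle group analysed here, so an effect of a ligand cannot be told apart from one of protein added to the medium. All 4 groups shared the cell line and the serum-free period.

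When amino acids run short, uncharged tRNA activates the kinase GCN2, and unfolded protein in the endoplasmic reticulum activates the related kinase PERK. Either kinase phosphorylates the initiation factor eIF2, which slows protein synthesis in general but raises the translation of ATF4 from messenger RNA that is already present. ATF4 protein then pairs with C/EBP factors on target genes for amino acid synthesis, amino acid uptake, tRNA charging and redox balance, and for the regulators that later shut the response down.

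RNA of all cells on an array was measured together, so fewer cells expressing a gene and less RNA per cell cannot be told apart. Mean deposited signals lay between 312 and 378 per array, and 12511 to 14088 probes were detected. Arrays of the same group correlated at 0.994 to 0.997 (Pearson's r over tested probes), and arrays of different groups at 0.989 to 0.997. The arrays lay on 2 chips of 6: chip 2 held the 3 arrays with both ligands, Wnt5a 2, Wnt3a 1 and Untreated 1, and chip 1 held the other arrays. Chip was therefore a term in the limma fit, and the combination can be set against the other groups within chip 2 only. Of 18 megakaryocyte markers 15 were tested, including ITGA2B, ITGB3, GP9 and GATA1, while the platelet granule genes PF4 and PPBP and the receptor gene TREML1 were not detected. The summed signal of the tested megakaryocyte markers was 37864 to 43228 with both ligands, 40836 to 45220 with Wnt5a, 43818 to 44888 with Wnt3a and 39512 to 47072 without ligand. Of the markers of other cells, 4 of 10 erythroid, 4 of 9 monocyte and granulocyte, 4 of 10 T and B cell and 2 of 9 fibroblast and endothelial genes were tested.

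Many members fell in both groups that received Wnt5a, and 2 passed the test with Wnt3a alone. A member is said to have risen or fallen where its log2 difference had a Benjamini-Hochberg adjusted p under 0.05 over all 14051 tested probes. With both ligands 19 of 34 members fell and 1 rose against untreated cells, where 7.77% of all tested probes passed, 3.32% lower and 4.45% higher. Without Untreated 1 these 20 calls became 11, all of them falls, and in a fit of those 2 groups alone they became 10. With Wnt5a alone 18 fell and 0 rose, against a background of 5.25% of probes, 2.33% lower and 2.92% higher. At an unadjusted p under 0.05 the counts were 24 and 0, where 17.5% of all tested probes passed in either direction. With Wnt3a alone 1 fell and 1 rose, against a background of 1.52%, 0.569% lower and 0.947% higher. At an unadjusted p under 0.05, 14 members were lower and 2 higher with Wnt3a, where 12.1% of all tested probes passed in either direction. Its 2 calls became 4 without background correction and 7 in the authors' deposited table. Shares of all tested probes under those settings were not counted, so these counts have no background beside them. The median log2 difference of the 34 members was -0.42 with both ligands, -0.35 with Wnt5a and -0.14 with Wnt3a, and that of all 9942 tested genes was 0.00 in each comparison. Differences lay below zero for 30 members with both ligands, 32 with Wnt5a and 28 with Wnt3a.

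**Figure D1:**
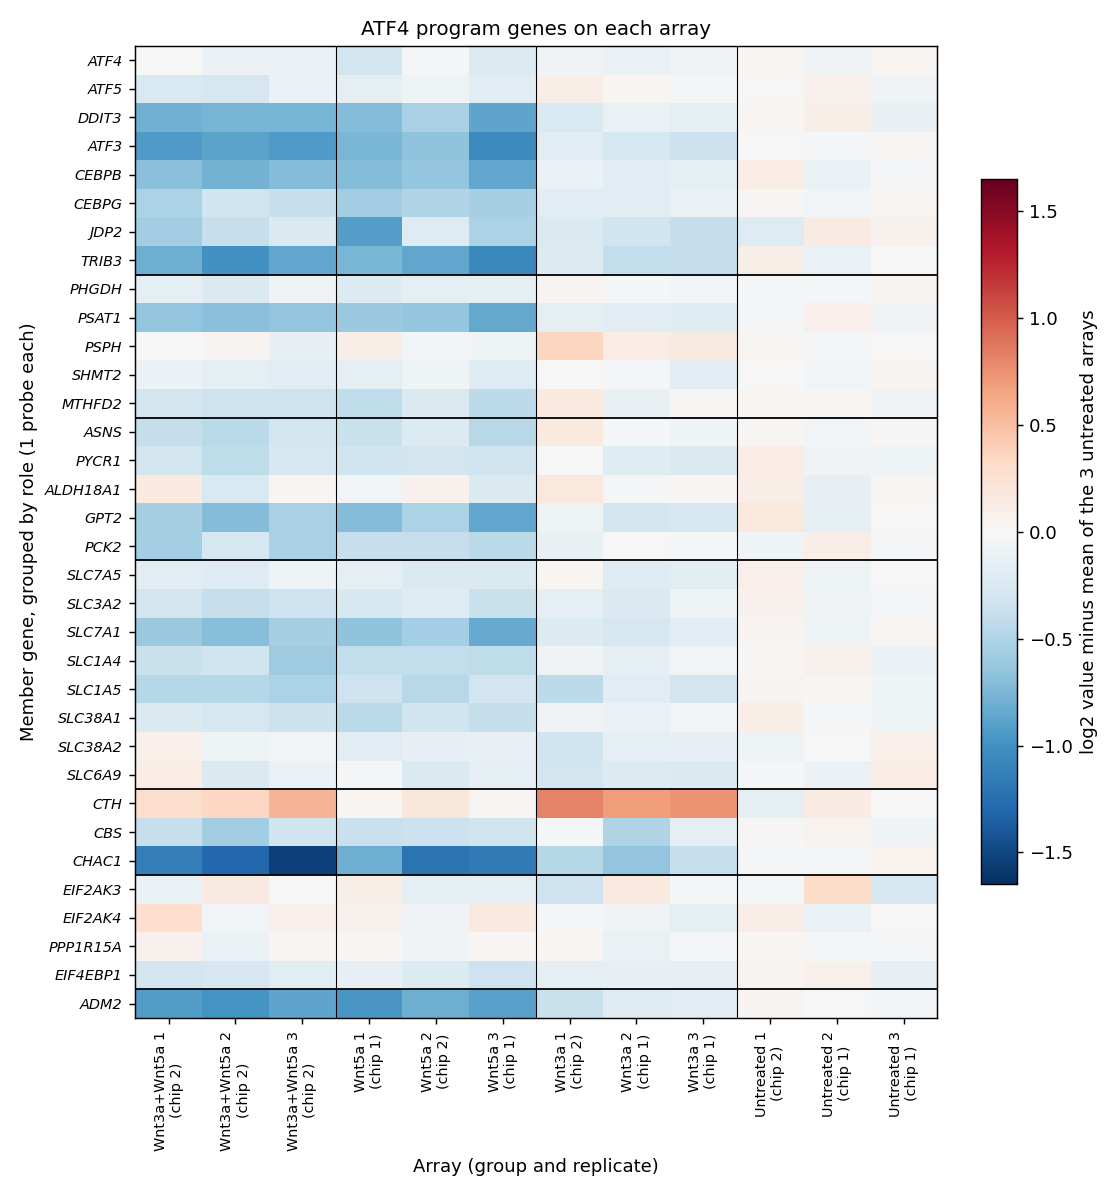
Log2 normalized signal of each of the 34 tested members on each of the 12 arrays, minus the mean of that member's 3 untreated arrays. Rows are grouped by role and columns by treatment, with the chip of each array in brackets. Several blue rows run through all 6 arrays that received Wnt5a, from ATF3 and TRIB3 near the top to CHAC1 and ADM2 at the foot, and CTH stands out in red with Wnt3a.

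All 3 arrays with both ligands lay below all 3 untreated arrays for 24 of 34 members, where 11.7% of all tested probes did so. The same held for 24 members with Wnt5a, against 10.0% of probes, and for 12 members with Wnt3a, against 6.61%. Over the 4 groups together, a moderated F test passed for 19 members, or 55.9% of those tested, and for 8.80% of all tested probes. The arrays of a group were not interchangeable: the chip 2 mean was higher than the chip 1 mean, in the fit, for 28 of 34 members and for 50.8% of all tested probes, by a median of 0.06 log2 units in the members. Wnt5a 3 had the lowest value of its group for 19 members, 55.9% of them, against 35.1% of all tested genes. Wnt5a 2, on chip 2, had the highest for 20 members, and for 30.9% of all tested genes. Other groups were uneven too: Wnt3a+Wnt5a 2 was lowest for 19 members and 39.5% of all tested genes. Wnt3a 1 was highest for 20 members and 40.6% of all tested genes.

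**Figure D2:**
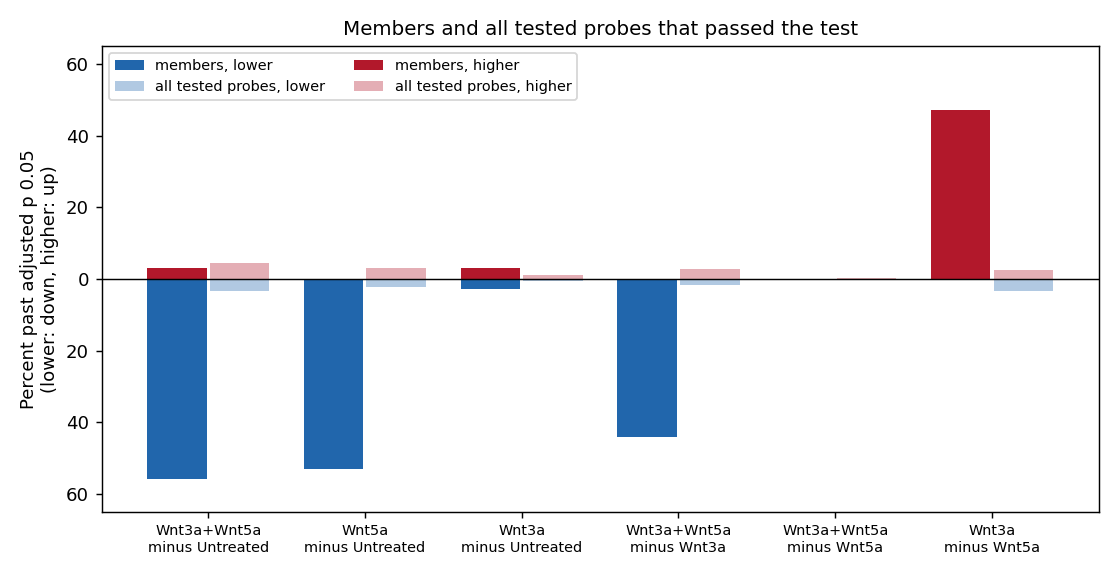
Percent of the 34 members (dark bars) and of all 14051 tested probes (pale bars) with an adjusted p under 0.05 in each comparison, drawn up for higher and down for lower. Members lie far below zero in the 3 comparisons that add Wnt5a, with 19, 18 and 15 members lower, and above zero where Wnt3a is set against Wnt5a, with 16 higher.

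Promoter sequence was available for 31 of the 39 members, as RefSeq windows of 300 bases on GRCh38.p14 that ran from 250 bases before a transcript start to 50 after it. They were searched on both strands for TGATGNAA, the core of the composite element on which C/EBP and ATF4 pair, where N is any base, and for TGACGTCA, the cyclic AMP response element bound by ATF and CREB dimers. These motifs do not contain one another. TGATGNAA was found for 10 of the 31 members (32.3%), against 1217 of 27305 genes in the same table (4.46%). Genes had unequal numbers of windows. Counted by window, it was found in 10 of 51 windows of the members (19.6%) and in 1270 of all 35116 windows (3.62%). It was found for 9 of the 16 members that fell with Wnt5a and had a window (56.2%), and for 1 of the 13 tested members that did not fall (7.69%), JDP2. The members were listed as genes of the ATF4 program, and with earlier results of these data known. Neither the share among members nor the split by fall is therefore an independent test of the motif. TGACGTCA was found for 1 member, PPP1R15A, and for 2.25% of all genes. The 9 stretches are shown because they hold the composite element in members that fell. Each is written 5′ to 3′ on the gene's own strand with the motif in capitals, and TTACATCA or TTGCATCA is the motif read on the other strand. A match describes these letters and is not evidence of binding, which was not measured.
ATF3 (chr1:212565201-212565238, plus strand): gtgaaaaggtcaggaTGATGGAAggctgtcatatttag
CEBPG (chr19:33374056-33374093, plus strand): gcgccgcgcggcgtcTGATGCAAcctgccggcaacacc
ASNS (chr7:97872454-97872491, minus strand): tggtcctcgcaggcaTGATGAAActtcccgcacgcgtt
SLC3A2 (chr11:62881725-62881748, plus strand): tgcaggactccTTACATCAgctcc
SLC7A1 (chr13:29595663-29595692, minus strand): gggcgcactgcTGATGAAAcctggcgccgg
SLC1A4 (chr2:64989381-64989410, plus strand): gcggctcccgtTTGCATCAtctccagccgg
SLC1A5 (chr19:46784889-46784926, minus strand): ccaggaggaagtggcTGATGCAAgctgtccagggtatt
SLC38A1 (chr12:46266502-46266531, minus strand): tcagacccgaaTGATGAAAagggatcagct
CHAC1 (chr15:40953247-40953284, plus strand): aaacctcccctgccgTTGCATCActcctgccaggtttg
In the stretches as written, the first base in capitals lay 209 bases before the transcript start in CHAC1, 191 in ATF3 and 97 in SLC1A5. It lay 68 bases before the start in ASNS, 42 in CEBPG, 7 in SLC1A4 and 4 in SLC38A1. It lay at base 8 of the transcript in SLC7A1 and at base 38 in SLC3A2. The members that fell with a window and no match included DDIT3, CEBPB, TRIB3, PSAT1 and ADM2.

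ATF4 itself gave no call at its brightest probe. Its log2 signal was 13.60, 13.50 and 13.50 with both ligands, 13.29, 13.56 and 13.37 with Wnt5a, 13.54, 13.48 and 13.53 with Wnt3a, and 13.63, 13.53 and 13.62 in untreated cells. The groups overlapped in every comparison with untreated cells. The log2 difference from untreated cells was -0.13 ± 0.077 with both ligands (SE, n = 3 arrays per group; limma adjusted p = 0.346), -0.19 ± 0.066 with Wnt5a (adjusted p = 0.142) and -0.08 ± 0.066 with Wnt3a (adjusted p = 0.722). A second, dimmer probe of ATF4 did fall. That probe read 9.22, 9.29 and 9.23 with both ligands and 9.34, 9.26 and 9.15 with Wnt5a, against 9.55, 9.62 and 9.49 in untreated cells, with no overlap. Its differences were -0.31 with both ligands (adjusted p = 0.0376) and -0.30 with Wnt5a (adjusted p = 0.0281). With Wnt3a the dimmer probe read 9.43, 9.48 and 9.32, also below every untreated array, at a difference of -0.14 that did not pass (adjusted p = 0.461). Wnt3a did not differ at that probe from the combination (adjusted p = 0.258) or from Wnt5a (adjusted p = 0.263). These are levels of messenger RNA, and the amount of ATF4 protein was not measured.

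Among transcription factors and their regulators, 5 of the 8 tested members fell with both ligands and the same number with Wnt5a, with medians of -0.64 and -0.63. With Wnt3a 0 passed in the limma fit, and 4 were lower at an unadjusted p under 0.05, at which 12.1% of all tested probes passed. ATF3, a repressor that ATF4 induces, read 7.64, 7.69 and 7.64 with both ligands, 7.82, 7.90 and 7.52 with Wnt5a, 8.39, 8.28 and 8.21 with Wnt3a, and 8.57, 8.55 and 8.59 in untreated cells. Every array with Wnt5a lay below every array without it. ATF3 fell 1.99-fold with both ligands (log2 difference -0.996 ± 0.093, adjusted p = 9.73e-05) and 1.77-fold with Wnt5a (-0.83 ± 0.081, adjusted p = 0.000109), and its difference with Wnt3a was -0.28 (adjusted p = 0.149). TRIB3, a pseudokinase that binds ATF4 and damps its activity, read 8.27, 8.08 and 8.22 with both ligands, 8.33, 8.22 and 8.02 with Wnt5a, 8.85, 8.68 and 8.69 with Wnt3a, and 9.18, 8.97 and 9.09 in untreated cells. It fell 1.95-fold with both ligands (adjusted p = 0.000179) and 1.85-fold with Wnt5a (adjusted p = 9.76e-05). The 3 arrays with Wnt3a alone also lay below the untreated arrays, at a difference of -0.34 that did not pass (adjusted p = 0.0846).

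CEBPB, a C/EBP factor that dimerizes with ATF4, read 11.26, 11.17 and 11.24 with both ligands, 11.24, 11.32 and 11.09 with Wnt5a, 11.85, 11.76 and 11.79 with Wnt3a, and 12.08, 11.84 and 11.94 in untreated cells. It fell 1.77-fold with both ligands (adjusted p = 8.27e-05) and 1.67-fold with Wnt5a (adjusted p = 5.33e-05). The 2 groups with Wnt5a overlapped each other and stood clear of the 2 groups without it. DDIT3, which encodes the stress factor CHOP, read 7.73, 7.76 and 7.75 with both ligands, 7.81, 7.99 and 7.65 with Wnt5a, 8.27, 8.41 and 8.36 with Wnt3a, and 8.55, 8.62 and 8.40 in untreated cells. It fell 1.76-fold with both ligands (adjusted p = 0.000553) and 1.63-fold with Wnt5a (adjusted p = 0.000523).

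CEBPG, the usual heterodimer partner of ATF4 on amino acid genes, read 9.18, 9.37 and 9.32 with both ligands, 9.13, 9.21 and 9.15 with Wnt5a, 9.52, 9.53 and 9.60 with Wnt3a, and 9.72, 9.66 and 9.73 in untreated cells. Its groups did not overlap with those of untreated cells under any treatment. It fell by 0.42 ± 0.076 on the log2 scale with both ligands (adjusted p = 0.0063, or 0.0865 without Untreated 1) and by 0.54 ± 0.065 with Wnt5a (adjusted p = 0.000523). ATF5, a factor whose translation is controlled like that of ATF4, had differences of -0.25 with both ligands (adjusted p = 0.0667), -0.13 with Wnt5a and 0.04 with Wnt3a. JDP2, a repressor of the AP-1 family, was detected on 10 of 12 arrays, including 2 of 3 arrays in each group with Wnt5a, and had differences of -0.47, -0.55 (adjusted p = 0.0595) and -0.32. NUPR1, a small stress-induced chromatin protein, was not detected on any array.

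**Figure D3:**
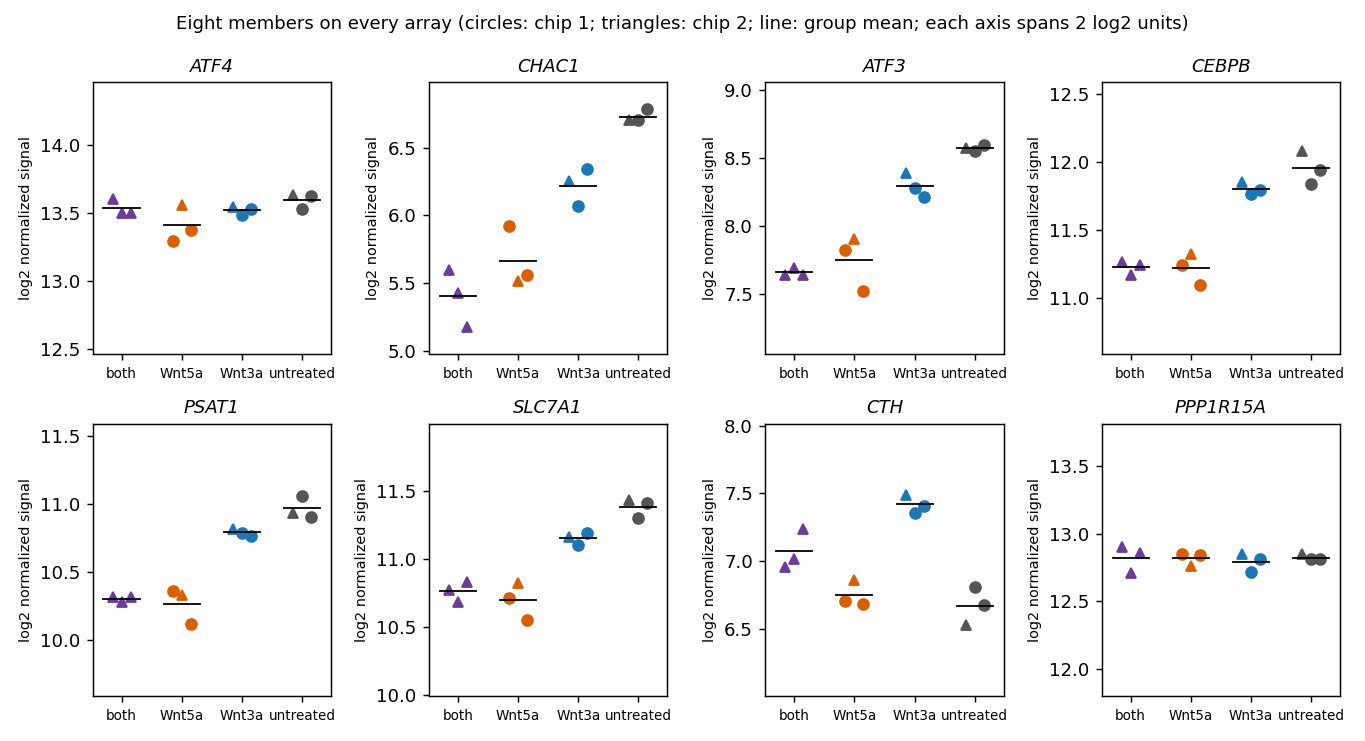
Log2 normalized signal of ATF4, CHAC1, ATF3, CEBPB, PSAT1, SLC7A1, CTH and PPP1R15A on every array, with circles for chip 1, triangles for chip 2 and a line at the group mean. Each panel spans the same number of log2 units, so distances compare between panels and heights do not. ATF3, CEBPB, PSAT1, SLC7A1 and CHAC1 sit low in both groups with Wnt5a, CTH sits high with Wnt3a, and ATF4 and PPP1R15A overlap across groups.

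Of the 5 tested enzymes of serine, glycine and one-carbon metabolism, 2 fell with both ligands and 2 with Wnt5a. PSAT1, the aminotransferase of the serine pathway, read 10.32, 10.28 and 10.32 with both ligands, 10.36, 10.33 and 10.12 with Wnt5a, 10.82, 10.79 and 10.77 with Wnt3a, and 10.94, 11.06 and 10.91 in untreated cells. It fell 1.60-fold with both ligands (adjusted p = 0.000608) and 1.62-fold with Wnt5a (adjusted p = 0.000177), with no overlap. MTHFD2, the mitochondrial folate enzyme, fell by 0.43 with both ligands (adjusted p = 0.00528, or 0.113 in a fit of those 2 groups alone) and by 0.36 with Wnt5a (adjusted p = 0.00665), and its second probe fell as well. PHGDH, which catalyses the step before PSAT1, read 13.30 to 13.59 over all 12 arrays. Its differences were -0.17 with both ligands (adjusted p = 0.204), -0.18 with Wnt5a (adjusted p = 0.159) and -0.01 with Wnt3a. None passed, although every array with Wnt5a or with both ligands lay below every untreated array for PHGDH. The phosphatase PSPH, which completes serine synthesis, differed by -0.07 with both ligands, 0.00 with Wnt5a and 0.21 with Wnt3a (adjusted p = 0.29). SHMT2, which turns serine into glycine in mitochondria, differed by -0.20, -0.14 and -0.07. None passed, although its arrays with Wnt5a or with both ligands lay below the untreated arrays too. The folate enzyme ALDH1L2 was not detected on any array.

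Enzymes of asparagine, proline and alanine synthesis and the gluconeogenic enzyme PCK2 made up 5 tested members, of which 4 fell with both ligands and 4 with Wnt5a. GPT2, the mitochondrial alanine aminotransferase, read 8.99, 8.82 and 9.0 with both ligands, 8.82, 9.02 and 8.68 with Wnt5a, 9.46, 9.24 and 9.26 with Wnt3a, and 9.71, 9.38 and 9.53 in untreated cells. It fell 1.70-fold with both ligands (adjusted p = 0.000271) and 1.63-fold with Wnt5a (adjusted p = 0.00016), and its Wnt3a arrays overlapped the untreated arrays. ASNS, which makes asparagine and is a classical marker of the response, read 11.27, 11.22 and 11.36 with both ligands, 11.29, 11.44 and 11.20 with Wnt5a, 11.82, 11.63 and 11.59 with Wnt3a, and 11.68, 11.62 and 11.68 in untreated cells. At this probe it fell by 0.47 ± 0.077 with both ligands (adjusted p = 0.00342, or 0.104 in a fit of those 2 groups alone). With Wnt5a it fell by 0.35 ± 0.066 (adjusted p = 0.00884, or 0.0526 without Wnt5a 3). A dimmer ASNS probe varied within groups and did not pass in either comparison, with 8.23, 7.08 and 7.64 under both ligands, 7.80, 7.48 and 7.82 under Wnt5a, and 6.49, 8.28 and 6.74 in untreated cells. Averaging the 2 probes turned the direction, to 0.187 with both ligands and 0.0899 with Wnt5a, so the fall of ASNS rests on its brightest probe.

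PYCR1, the last enzyme of proline synthesis, read 8.16, 8.05 and 8.18 with both ligands, 8.14, 8.16 and 8.14 with Wnt5a, 8.47, 8.26 and 8.22 with Wnt3a, and 8.59, 8.41 and 8.39 in untreated cells. It fell by 0.43 with both ligands (adjusted p = 0.00559, or 0.101 without Untreated 1). With Wnt5a it fell by 0.32 (adjusted p = 0.0146, or 0.0884 without Untreated 1 and 0.0874 without Wnt5a 2). PCK2, which also supplies serine precursors, fell by 0.42 with both ligands (adjusted p = 0.0192) and by 0.40 with Wnt5a (adjusted p = 0.0128) at the brightest of its 3 probes. Another probe fell in both comparisons, while the remaining one fell with Wnt5a and differed by -0.18 with both ligands (adjusted p = 0.401). At the brightest probe the adjusted p for the combination rose above 0.05 in 3 of the 12 fits that each left out 1 array. These gave 0.0541 without Wnt3a+Wnt5a 1, 0.0629 without Wnt3a+Wnt5a 3 and 0.115 without Untreated 1. The call was also lost without the filter on dim probes (0.0581) and in a fit of the combination and untreated cells alone (0.198). For Wnt5a the adjusted p rose above 0.05 without Wnt5a 3 (0.0704) and without Untreated 2 (0.0624). ALDH18A1, which begins proline synthesis, had overlapping groups throughout and differences of -0.14, -0.07 and 0.06 with both ligands, Wnt5a and Wnt3a.

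Amino acid transporters had 8 tested members, of which 5 fell with both ligands and 5 with Wnt5a. SLC7A1, the cationic amino acid transporter, read 10.77, 10.68 and 10.83 with both ligands, 10.71, 10.82 and 10.55 with Wnt5a, 11.16, 11.10 and 11.19 with Wnt3a, and 11.43, 11.30 and 11.41 in untreated cells. It fell 1.60-fold with both ligands (adjusted p = 0.000572) and 1.61-fold with Wnt5a (adjusted p = 0.000195), and no group with Wnt5a overlapped one without it. SLC1A4, a carrier of small neutral amino acids, read 6.53, 6.57 and 6.32 with both ligands, 6.50, 6.50 and 6.49 with Wnt5a, 6.85, 6.75 and 6.86 with Wnt3a, and 6.92, 6.98 and 6.81 in untreated cells. It fell by 0.44 with both ligands (adjusted p = 0.0112, or 0.115 without Untreated 1) and by 0.40 with Wnt5a (adjusted p = 0.00884). In the authors' deposited table these differences were -0.17 and -0.15, which also passed.

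SLC1A5, the main glutamine transporter of many proliferating cells, was the 1 member called lower with Wnt3a alone. It read 10.85, 10.84 and 10.80 with both ligands, 10.97, 10.86 and 11.00 with Wnt5a, 10.89, 11.13 and 11.01 with Wnt3a, and 11.36, 11.34 and 11.25 in untreated cells. All 9 treated arrays lay below the untreated arrays. It fell by 0.43 with both ligands (adjusted p = 0.00659, or 0.143 without Untreated 1) and by 0.37 with Wnt5a (adjusted p = 0.00721, or 0.0536 without Untreated 1). With Wnt3a it fell by 0.31 (adjusted p = 0.0468), a call lost under 16 of 23 alternatives, 11 of which left out 1 array, with adjusted p up to 0.275 without Untreated 1.

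SLC38A1, a glutamine carrier, fell by 0.35 with both ligands (adjusted p = 0.0118, or 0.175 without Untreated 1) and by 0.39 with Wnt5a (adjusted p = 0.00297). Its second probe fell by 0.86 and 0.58. That probe was dim, at 5.69, 5.68 and 5.83 with both ligands and 5.96, 6.04 and 5.68 with Wnt5a. With Wnt3a it differed by -0.41 (adjusted p = 0.109), against -0.07 at the brightest probe, and neither passed. SLC3A2, the heavy chain that carries SLC7A5 to the membrane, fell by 0.39 with both ligands (adjusted p = 0.00872, or 0.123 without Untreated 1). With Wnt5a it fell by 0.28 (adjusted p = 0.0251), and without 1 of Wnt5a 2, Wnt5a 3 or any of the untreated arrays its adjusted p lay between 0.0551 and 0.125. Of its 2 other probes, both fell with both ligands, and 1 did not pass with Wnt5a (-0.30, adjusted p = 0.126). SLC7A5 itself, the light chain for large neutral amino acids, differed by -0.22 with both ligands (adjusted p = 0.126), -0.21 with Wnt5a (adjusted p = 0.133) and -0.12 with Wnt3a. SLC38A2, a carrier that many cells raise when starved of amino acids, differed by 0.06, -0.15 and -0.21, and the glycine transporter SLC6A9 by -0.01, -0.14 and -0.25, none of which passed. The cystine transporter SLC7A11 was not detected on any array.

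Of the 3 members of sulphur and glutathione metabolism, 2 fell and 1 rose with both ligands. CHAC1 degrades glutathione. It read 5.60, 5.43 and 5.18 with both ligands, 5.92, 5.52 and 5.56 with Wnt5a, 6.25, 6.07 and 6.34 with Wnt3a, and 6.70, 6.70 and 6.78 in untreated cells. Every treated array lay below every untreated one, and every array with Wnt5a lay below every array with Wnt3a alone. It fell 2.42-fold with both ligands (-1.27 ± 0.141, adjusted p = 0.000322) and 2.08-fold with Wnt5a (-1.06 ± 0.122, adjusted p = 0.000356), and its difference with Wnt3a was -0.51 (adjusted p = 0.0683). It was detected on 2 of 3 arrays with both ligands, close to background, and its size moved with the background treatment. Without background correction the log2 differences were -0.70 with both ligands and -0.61 with Wnt5a, and the authors' deposited table gave -0.36 and -0.32, all of which passed. CEBPB fell by more than CHAC1 in both settings, with -0.81 and -0.73 in the authors' deposited table.

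CBS, which joins homocysteine to serine, read 6.11, 5.92 and 6.17 with both ligands, 6.13, 6.14 and 6.16 with Wnt5a, 6.48, 6.0 and 6.34 with Wnt3a, and 6.51, 6.55 and 6.42 in untreated cells. It fell by 0.50 ± 0.119 with both ligands (adjusted p = 0.0262), and its difference of -0.35 with Wnt5a did not pass (adjusted p = 0.0757). The call with both ligands was lost without Untreated 1 (adjusted p = 0.125), Untreated 2 (0.0519), Wnt3a 1 (0.0597) or Wnt3a+Wnt5a 2 (0.0688), and the authors' deposited table gave -0.16.

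CTH, which makes cysteine from cystathionine, was the only member that rose in any comparison with untreated cells. It read 6.96, 7.02 and 7.24 with both ligands, 6.71, 6.86 and 6.69 with Wnt5a, 7.49, 7.36 and 7.41 with Wnt3a, and 6.53, 6.81 and 6.68 in untreated cells. The 3 arrays with Wnt3a alone stood above all the others. CTH rose 1.68-fold with Wnt3a (0.75 ± 0.093, adjusted p = 0.00146), 0.64 within chip 1 and 0.96 within chip 2, and it passed under all 23 alternatives. With both ligands it rose by 0.39 ± 0.107 (adjusted p = 0.0471), a call lost under 14 of 23 alternatives, with an adjusted p of 0.503 without Untreated 1, and with Wnt5a its difference was 0.08. A second CTH probe read 0.40 higher with Wnt3a and did not pass (adjusted p = 0.0732), and the authors' deposited table gave 0.33 with Wnt3a.

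Of the 4 members of translation control, 0 passed in any comparison with limma. At an unadjusted p under 0.05 there was 1, EIF4EBP1, lower with both ligands and with Wnt5a, where 22.6% and 17.5% of all tested probes passed. PPP1R15A, the phosphatase subunit that reverses eIF2 phosphorylation and is itself an ATF4 target, read 12.71 to 12.90 over all 12 arrays and differed by -0.01 with both ligands, with an interval of -0.18 to 0.16, and by 0.00 with Wnt5a, with an interval of -0.15 to 0.15 (95% confidence). EIF2AK4, which encodes GCN2, differed by 0.10, 0.07 and -0.07 with both ligands, Wnt5a and Wnt3a. EIF2AK3, which encodes PERK, was detected on 5 of 12 arrays and differed by 0.14, -0.07 and -0.07. EIF4EBP1, the repressor of cap-dependent translation, differed by -0.26 with both ligands (adjusted p = 0.101), -0.23 with Wnt5a and -0.13 with Wnt3a.

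Of the secreted peptides and the receptor, only ADM2 was tested. ADM2, a peptide hormone related to adrenomedullin, read 7.46, 7.39 and 7.51 with both ligands, 7.42, 7.57 and 7.49 with Wnt5a, 8.01, 8.18 and 8.19 with Wnt3a, and 8.42, 8.38 and 8.34 in untreated cells. The groups with Wnt5a were interleaved and separate from the others, and the Wnt3a arrays lay between. ADM2 fell 1.91-fold with both ligands (adjusted p = 7.86e-05) and 1.85-fold with Wnt5a (adjusted p = 2.78e-05), and its difference with Wnt3a was -0.26 (adjusted p = 0.126). STC2, a stanniocalcin, and VLDLR, a lipoprotein receptor, were not detected on any array.

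**Figure D4:**
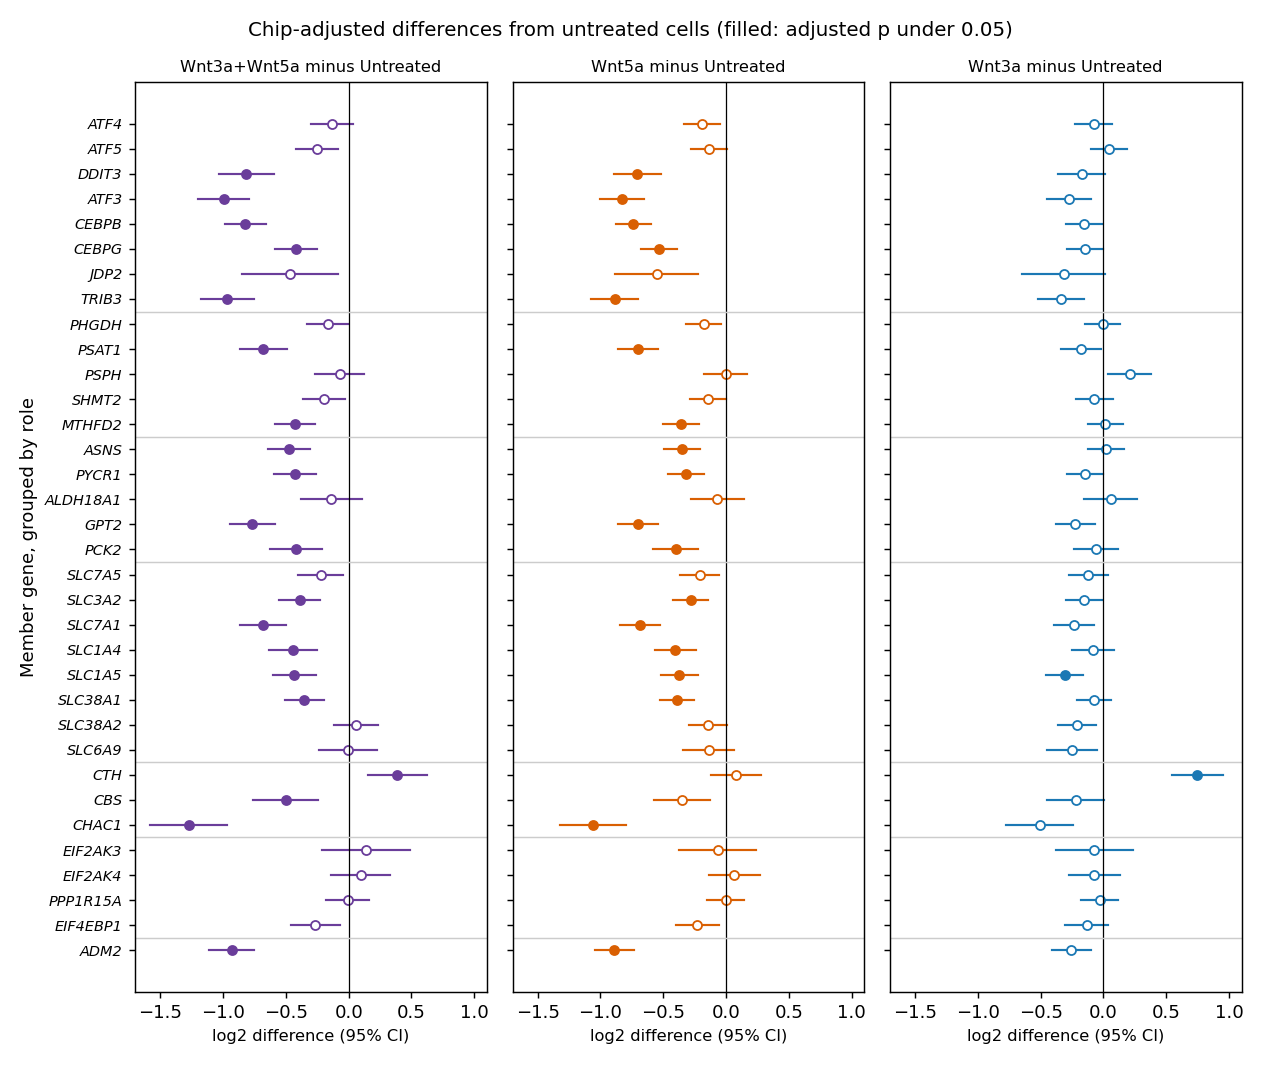
Log2 difference of each tested member from untreated cells after adjustment for chip, with 95% confidence intervals, for both ligands, Wnt5a and Wnt3a. Filled points have an adjusted p under 0.05: 20 members with both ligands, 18 with Wnt5a and 2 with Wnt3a. Most points of the left and middle panels lie below zero, and those of the right panel lie nearer to it.

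In the authors' deposited table some falls were over 1.5 times smaller and still passed, at -0.63 with both ligands and -0.52 with Wnt5a for ATF3, -0.51 and -0.45 for DDIT3, -0.55 and -0.53 for ADM2, and -0.29 and -0.21 for PYCR1. Falls of ATF3, TRIB3, CEBPB, CHAC1 and ADM2 were also seen within a chip. On chip 1, where 2 arrays with Wnt5a met 2 untreated arrays, the differences were -0.91 for ATF3, -0.85 for TRIB3, -0.73 for CEBPB, -0.997 for CHAC1 and -0.91 for ADM2. On chip 2, where 1 array met 1, they were -0.67, -0.96, -0.76, -1.18 and -0.86 in that order. With both ligands, the 3 arrays differed from Untreated 1 on chip 2 by -0.91, -0.98, -0.86, -1.30 and -0.97. Of the 18 falls with Wnt5a, 13 passed under all 23 alternatives, and of the 20 calls with both ligands 9 did, namely DDIT3, ATF3, CEBPB, TRIB3, PSAT1, GPT2, SLC7A1, CHAC1 and ADM2.

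Adding Wnt5a to Wnt3a lowered 15 of the 34 members and raised 0, where 4.61% of all tested probes passed, 1.84% lower and 2.78% higher. At an unadjusted p under 0.05 with limma, 22 were lower and 2 higher, and 21.5% of all tested probes passed. The median difference of the members was -0.28. CHAC1 fell by 0.77 ± 0.141 (adjusted p = 0.0115, or 0.185 without Wnt3a 1), ATF3 by 0.72 ± 0.093 (adjusted p = 0.00145), ADM2 by 0.67 ± 0.082 (adjusted p = 0.000945) and CEBPB by 0.67 ± 0.075 (adjusted p = 0.000585). ATF5, called in no other comparison, fell by 0.30 ± 0.076 (adjusted p = 0.0482). Its arrays read 10.15, 10.13 and 10.29 with both ligands against 10.51, 10.43 and 10.39 with Wnt3a, and its call was lost under 15 of 23 alternatives. This comparison leans on Wnt3a 1, the only Wnt3a array on the chip of the combination: without it 4 members passed, and in a fit of those 2 groups alone 6 did.

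Adding Wnt3a to Wnt5a gave 0 calls among the members with limma, where 0.121% of all tested probes passed. At an unadjusted p under 0.05 with limma, 8.85% of all tested probes passed, and 2 of the 34 members did, which is not above that share. Both were higher with both ligands: CTH by 0.31 ± 0.107 and SLC38A2 by 0.21 ± 0.080, with adjusted p of 0.423 and 0.485. Set against each other, Wnt3a gave higher values than Wnt5a for 16 of the 34 members and lower values for 0, where 5.90% of all tested probes passed, 2.58% higher and 3.32% lower. At an unadjusted p under 0.05 with limma the counts were 20 and 0, and 18.0% of all tested probes passed. CTH was higher by 0.67 ± 0.093 (adjusted p = 0.00101), ADM2 by 0.63 ± 0.071 (adjusted p = 0.000215), CEBPB by 0.58 ± 0.065 (adjusted p = 0.000209), and TRIB3, CHAC1 and ATF3 by 0.55 each. In the authors' deposited table the difference was 0.57 for CEBPB, 0.37 for ADM2, 0.30 for CTH and 0.15 for CHAC1, and the second CTH probe did not pass (0.34, adjusted p = 0.0641). The call of CHAC1 was lost without Wnt3a 1 (adjusted p = 0.113), Wnt3a 3 (0.0816), Wnt5a 2 (0.105) or Wnt5a 3 (0.096). The ligands differed in dose as well as in kind in this comparison.

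The departure from additivity, that is the difference with both ligands minus the sum of the differences with each, gave 0 calls among the members and 0% of all tested probes with limma. Its median over the members was 0.10. At an unadjusted p under 0.05 with limma there were 6 members, where 7.82% of all tested probes passed. Of these, SLC38A2 had 0.41 ± 0.106, SLC6A9 0.38 ± 0.141, CEBPG 0.26 ± 0.10, SLC1A5 0.25 ± 0.104, PSPH -0.28 ± 0.119 and CTH -0.44 ± 0.142, and the smallest adjusted p was 0.497. For SLC38A2 both single ligands lay below untreated cells while the combination did not, at -0.21 with Wnt3a, -0.15 with Wnt5a and 0.06 with both. These values do not show that the ligands act additively, since the median SE of this contrast over the members was 0.11.

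Genes outside the 39 that belong to the same pathway moved unevenly. These lists, like the 39 members, were chosen with earlier results of these data known. Of 25 tested further targets of ATF4, 14 fell and 1 rose with both ligands, where 3.32% of all tested probes fell and 4.45% rose. With Wnt5a 10 fell and 0 rose, against 2.33% and 2.92% of probes. At an unadjusted p under 0.05 with limma 17 were lower and 0 higher, and 17.5% of all tested probes passed in either direction. The medians were -0.31 with both ligands and -0.23 with Wnt5a. DDIT4, an inhibitor of the growth kinase complex mTORC1, read 10.67, 10.60 and 10.57 with both ligands, 10.75, 11.00 and 10.52 with Wnt5a, 11.51, 11.49 and 11.41 with Wnt3a, and 11.94, 11.91 and 11.83 in untreated cells. It fell 2.62-fold with both ligands (adjusted p = 1.6e-05) and 2.20-fold with Wnt5a (adjusted p = 2.26e-05), and it also fell with Wnt3a, by 0.42 (adjusted p = 0.0289). SESN2, a leucine sensor that restrains mTORC1, fell with Wnt5a by 0.67 (adjusted p = 0.000486). With both ligands it was detected on 1 of 3 arrays, and the fall there (adjusted p = 0.00021) is given without a size. HERPUD1, which helps to remove misfolded protein from the endoplasmic reticulum, fell by 0.69 with both ligands (adjusted p = 0.00022) and by 0.50 with Wnt5a (adjusted p = 0.000546). The gene that rose was KLHL24, a ubiquitin ligase adaptor named here after its value was seen, by 0.49 with both ligands (adjusted p = 0.0135).

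The remaining lists gave few calls. The shares of all tested probes beside them were 3.32% lower and 4.45% higher with both ligands, and 2.33% and 2.92% with Wnt5a. At an unadjusted p under 0.05 with limma, 22.6% of all tested probes passed with both ligands and 17.5% with Wnt5a. In lists of 8 to 14 tested genes a single call says nothing about the list as a whole. Among 14 tested subunits and regulators of eIF2 and its exchange factor eIF2B, EIF2S2, the beta subunit of eIF2, fell by 0.43 (adjusted p = 0.0194) and EIF2AK2, which encodes the antiviral kinase PKR, rose by 0.36 (adjusted p = 0.0291) with both ligands, and 0 passed with Wnt5a (2 at an unadjusted p under 0.05 with limma, 1 in each direction). Of 9 further serine and one-carbon genes, 0 passed with both ligands or with Wnt5a (2 and 1 were lower at an unadjusted p under 0.05 with limma). Of 9 further amino acid transporters, SLC16A10, which carries aromatic amino acids, fell by 0.32 with both ligands (adjusted p = 0.0324) and by 0.32 with Wnt5a (adjusted p = 0.0212), and SLC25A15, the mitochondrial ornithine carrier, rose by 0.27 with Wnt5a (adjusted p = 0.0146). Of 11 further sulphur and glutathione genes, MAT2A, which makes S-adenosylmethionine, fell by 0.42 with both ligands (adjusted p = 0.00666) and by 0.32 with Wnt5a (adjusted p = 0.0156). Of 8 further proline, aspartate and glutamate genes, BCAT2, a branched-chain aminotransferase, fell by 0.29 with both ligands (adjusted p = 0.0492) and GOT1, an aspartate aminotransferase, by 0.28 with Wnt5a (adjusted p = 0.0416).

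Cell type markers were measured on the same arrays. Of all tested probes 3.32% fell and 4.45% rose with both ligands, 2.33% and 2.92% with Wnt5a, and 0.569% and 0.947% with Wnt3a. With both ligands 3 of 15 tested megakaryocyte markers fell and with Wnt5a 2 did, with medians of -0.01 in both, and 0 rose with limma, also at an unadjusted p under 0.05. The markers that fell were GFI1B, a repressor of megakaryocyte and erythroid development, by 0.85 with both ligands and 0.71 with Wnt5a, the platelet glycoprotein gene GP1BA by 0.43 and 0.35, and, with both ligands, the transcription factor gene GATA2 by 0.43. Of the markers of other cells, the macrophage receptor gene CSF1R fell by 0.62 with both ligands. The erythroid enzyme gene ALAS2 rose by 0.43 and 0.39 and the fibroblast receptor gene PDGFRA by 0.39 and 0.27, while the granulocyte gene MPO, the T cell genes CD3D and CD3E and the collagen gene COL1A1 were not among the tested genes. With Wnt3a alone GATA2 fell by 0.46 and the T cell surface gene CD2 rose by 0.52. Whether these markers have a part in the change of the ATF4 program genes was not tested.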

How the data were processed

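Total RNA was hybridized to human BeadChips, 12 arrays in 4 groups of 3 on 2 chips. Groups came from the sample titles and treatments, and chips from the sample descriptions. Members and lists were chosen with earlier results of these data known.

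The authors deposited, per the file headers, a signal intensity for each of 48803 probes and a detection value, a fraction from 0 to 1. That fraction ran opposite to a p-value, with high values for bright probes, and was used as a detection score. The authors' deposited value table is in log2 units; per the submitters' processing notes lumi was used, with no version and no role given. It served only as an alternative.

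Intensities were background-corrected by normexp with 759 negative controls inferred from the detection values, plus an offset of 16, then normalized by quantiles and log2-transformed, in limma 3.58.1 under R 4.3.3. Probes with a detection score above 0.99 on at least 3 arrays were kept, 14051 in all. lmFit with 4 group means and a chip term, contrasts.fit and eBayes gave two-sided p-values on 7 residual and 5.04 prior degrees of freedom, adjusted by Benjamini-Hochberg over all tested probes. Within-chip differences are plain means. The number of arrays limits precision, and the median SE over the members was 0.072 for single ligands and 0.083 for the combination. The fit was tested on simulated data.

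Gene names came from the platform annotation, updated through gene identifiers, for 11775 tested probes. For 1097 they came from the deposited file alone, among them the probes of ADM2 and GPT2 and the brightest probes of MTHFD2 and SLC3A2. Of the others, 1179 had no name and 2 had several.

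All 39 members are accounted for. Array values are given for the 16 called members with the largest absolute log2 difference from untreated cells and for ATF4. From each further list up to 3 called genes with the largest difference are named, and of the markers every called gene against untreated cells. Promoters came from RefSeq (GRCh38.p14) and were matched by symbol.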

Additional observations from a re-analysis of the deposited data

How the results depend on the processing

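The member counts were recomputed under 23 alternatives, 12 of which left out 1 array. Of 71 member calls over the comparisons, 39 passed under every alternative and 32 missed the threshold under at least 1. Counts for Wnt5a against untreated cells (15 to 21), Wnt3a against Wnt5a (13 to 17) and the F test (17 to 22) stayed within 1.5 times their values, and adding Wnt3a to Wnt5a and the departure from additivity gave 0 throughout with limma (2 and 6 in the reported fit at an unadjusted p under 0.05). With both ligands against untreated cells the 20 calls became 10 in a fit of only those groups and 11 to 20 with 1 array left out, the lowest without Untreated 1. With both ligands against Wnt3a the 15 became 6 in a fit of only those groups and 4 to 16 with 1 array left out, the lowest without Wnt3a 1. A fit of only the groups compared holds fewer arrays, and it has no value for the F test or for additivity. The 2 calls with Wnt3a became 4 without background correction and 4 with an offset of 50. They became 7 in the authors' deposited table and 1 each under median scaling, without a chip term and without a filter, and lay between 1 and 3 with 1 array left out. Shares of all tested probes were not counted under the alternatives, so a change in a member count may go with a change in calls over all probes. The cause of these shifts was not tested.

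The direction turned only for ASNS, to 0.0899 with Wnt5a and 0.187 with both ligands against untreated cells when its probes were averaged. The authors' deposited table gave differences over 1.5 times smaller for 26 of the 71 calls, and no background correction did so for 9. Same-numbered replicates of different groups did not deviate together in every pair (5 of 6 pairs correlated over 0.1 for number 2 and 0 of 6 for number 3 once chip was removed), so the numbers were not taken as pairs. With the replicate number as a block beside chip, 20 members passed the F test, 2 with Wnt3a, 19 with Wnt5a and 20 with both ligands against untreated cells, 13 with both ligands against Wnt3a and 16 with Wnt3a against Wnt5a. SLC1A5 then missed the threshold with Wnt3a (adjusted p = 0.0564).

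Signal over background limits CHAC1, JDP2 and EIF2AK3, which were not detected on all arrays, and 5 members that did not pass the filter. With 3 arrays per group, and 1 array of each other group on the chip of the combination, small differences could not be told from the spread between arrays.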
